A study of Mus musculus with 18 samples.

Results

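The genes described here handle fatty acids as a fuel of the colon. They comprise the nuclear receptors *Ppara* and *Pparg*, their target genes *Pdk4* and *Angptl4*, the carnitine transferase gene *Cpt1a*, the acyl-CoA dehydrogenase genes *Acadm* and *Acads*, and the monocarboxylate transporter genes *Slc16a1* and *Slc5a8*. These 9 genes were taken by name from a count table of 47729 genes, and all 9 were among the 16937 genes that passed the filter on low counts. The rule uses names and no measured value.

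Colon RNA was sequenced from WT mice and from *Cldn2*KO mice, which lack the tight junction protein claudin-2 and had WT littermates as controls. Mice of each genotype, on a C57BL/6 background, formed a control group without treatment, a recovery group studied after colitis induced with dextran sulfate sodium (DSS), which damages the lining of the colon, and a group given the carcinogen azoxymethane together with DSS (AOM/DSS), in which tumors follow colitis. Each of the 6 groups held 3 libraries, 18 in all, with 17.6 M to 27.4 M counted reads. The labels do not give the age of the mice. They also do not say whether the libraries of a group came from separate mice, so p-values measure the spread between these libraries.

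Levels are in CPM, the reads of a gene per M reads of its library, with libraries scaled to each other by trimmed means (TMM). *Cldn2* itself measured 44.5 to 131 CPM in WT control, 309 to 504 in WT recovery and 126 to 205 in WT AOM/DSS libraries. In the 9 *Cldn2*KO libraries it reached at most 0.556 CPM. The epithelial marker *Epcam* lay between 1814 and 2432 CPM in all 18 libraries, but other epithelial markers differed between the groups, as given below. The marker of distal colon *Hoxb13*, a posterior Hox gene, separated them: it measured 198 to 569.7 CPM in 11 libraries and 0 to 0.502 CPM in the 6 recovery libraries and in WT control replicate 2. That control library stood apart from the other WT controls, and for part of the results that rest on it the value without it is also given. For *Cldn2*KO mice, every recovery library was low and every control library high in *Hoxb13*, so in that genotype recovery and the *Hoxb13* difference cannot be told apart. In WT mice they can be separated only through control replicate 2. The study names distal colon as the source of the recovery RNA, the labels name colon, and whether another segment was sampled in the libraries without *Hoxb13* was not tested. *Xist*, transcribed in female cells, exceeded 10 CPM in 4 of the 6 recovery libraries, in 2 of the 3 *Cldn2*KO AOM/DSS libraries and in none of the 6 controls or 3 WT AOM/DSS libraries.

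Colonocytes draw much of their energy from butyrate, a short-chain fatty acid made by gut bacteria. The transporters MCT1 (*Slc16a1*) and SMCT1 (*Slc5a8*) carry butyrate into the cell, and mitochondrial beta-oxidation turns it and longer fatty acids into acetyl-CoA. CPT1A lets long-chain fatty acids enter the mitochondrion, and the acyl-CoA dehydrogenases for medium chains (*Acadm*) and short chains (*Acads*) catalyse the first oxidation step. PPARα and PPARγ are fatty acid sensors that bind DNA with RXR and raise the transcription of fuel genes. Among such genes, *Pdk4* encodes a kinase that inhibits pyruvate dehydrogenase, the enzyme that turns pyruvate into acetyl-CoA. *Angptl4* encodes a secreted inhibitor of lipoprotein lipase that bacteria and fatty acids are known to influence in the gut.

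PPAR-RXR dimers bind repeats of the hexamer AGGTCA, so the promoters of the genes were searched for it. Of the 9 genes, 8 had an entry in the RefSeq promoter table (GRCm38.p6, 250 bases before to 50 bases after each transcription start), with 10 entries between them because *Pparg* has 3 starts. The hexamer, searched on both strands, occurred in 4 of these 10 promoters, against 16.3% of all 32851 promoters in the table. Counted by gene it occurred in 3 of 8, against 18.1% of all 27025 genes, since *Pparg* gave more than 1 of the promoters. These 4 windows are shown because they hold the core of the motif that the receptors in the set recognise, with the hexamer or its reverse complement in capitals, read 5′ to 3′ on the strand of the gene.
*Cpt1a* (chr19:3323167-3323252, plus strand): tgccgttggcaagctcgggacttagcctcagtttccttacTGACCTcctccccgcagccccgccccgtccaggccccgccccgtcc
*Pparg*, first start (chr6:115361076-115361161, plus strand): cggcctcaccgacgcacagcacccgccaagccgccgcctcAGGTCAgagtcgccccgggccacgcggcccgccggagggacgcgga
*Pparg*, second start (chr6:115362300-115362385, plus strand): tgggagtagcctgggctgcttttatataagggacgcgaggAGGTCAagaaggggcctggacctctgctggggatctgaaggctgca
*Acadm* (chr3:153944847-153944893, minus strand): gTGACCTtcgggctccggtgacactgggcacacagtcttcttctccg
The hexamer began 94 bases before the start of *Cpt1a*, 28 and 9 bases before those of *Pparg*, and 249 bases before that of *Acadm*. The promoter windows of *Ppara*, *Pdk4*, *Acads*, *Slc16a1*, *Slc5a8* and the third start of *Pparg* did not contain these letters. The direct repeat with 1 base between its copies, the full PPAR element, occurred in 0.04% of all promoters and in none of the 10. A match describes the letters in the window and is not a mapped binding site.

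In GRCm38 (GENCODE M21), *Ppara* spans chr15:85734983-85802819, *Pparg* chr6:115360951-115490399, *Pdk4* chr6:5483351-5496309, *Angptl4* chr17:33773750-33781830, *Cpt1a* chr19:3322334-3385733, *Acadm* chr3:153922357-153944632, *Acads* chr5:115110299-115119346, *Slc16a1* chr3:104638668-104658462 and *Slc5a8* chr10:88885992-88929515. No annotated gene overlapped the exons of any of them. The antisense gene *Gm44079*, inside an intron of *Pparg*, held 16 reads over all libraries against 34465 for *Pparg*. Within introns of *Slc16a1*, on the same strand, *Gm43581* held 311 reads and *Gm43585* 137, against 184859 for *Slc16a1*.

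Per length of transcript (RPKM, a level of reads per kilobase with the scaling of CPM), the genes of transport and oxidation stood far above the receptors' target genes in untreated colon. In *Cldn2*KO control the group means fell in the order *Slc16a1* (113.7), *Slc5a8* (68.2), *Acads* (61.6), *Cpt1a* (40.4), *Acadm* (37.2), *Pparg* (12.7), *Pdk4* (1.62), *Ppara* (0.441) and *Angptl4* (0.239). The libraries of neighbours in this order overlapped only for *Slc5a8* with *Acads* and for *Cpt1a* with *Acadm*. In *Cldn2*KO recovery the order of the means was *Acads* (129), *Slc16a1* (113.7), *Cpt1a* (71.5), *Acadm* (57.3), *Pparg* (57.2), *Slc5a8* (35.8), *Pdk4* (23.9), *Angptl4* (15.1) and *Ppara* (7.52), and there only *Slc16a1* and *Cpt1a* were neighbours whose libraries did not overlap. In WT recovery *Acads* was again first (154 RPKM), its libraries overlapping those of *Slc16a1* (123 RPKM), and *Ppara* was last (4.89 RPKM).

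**Figure D1:**
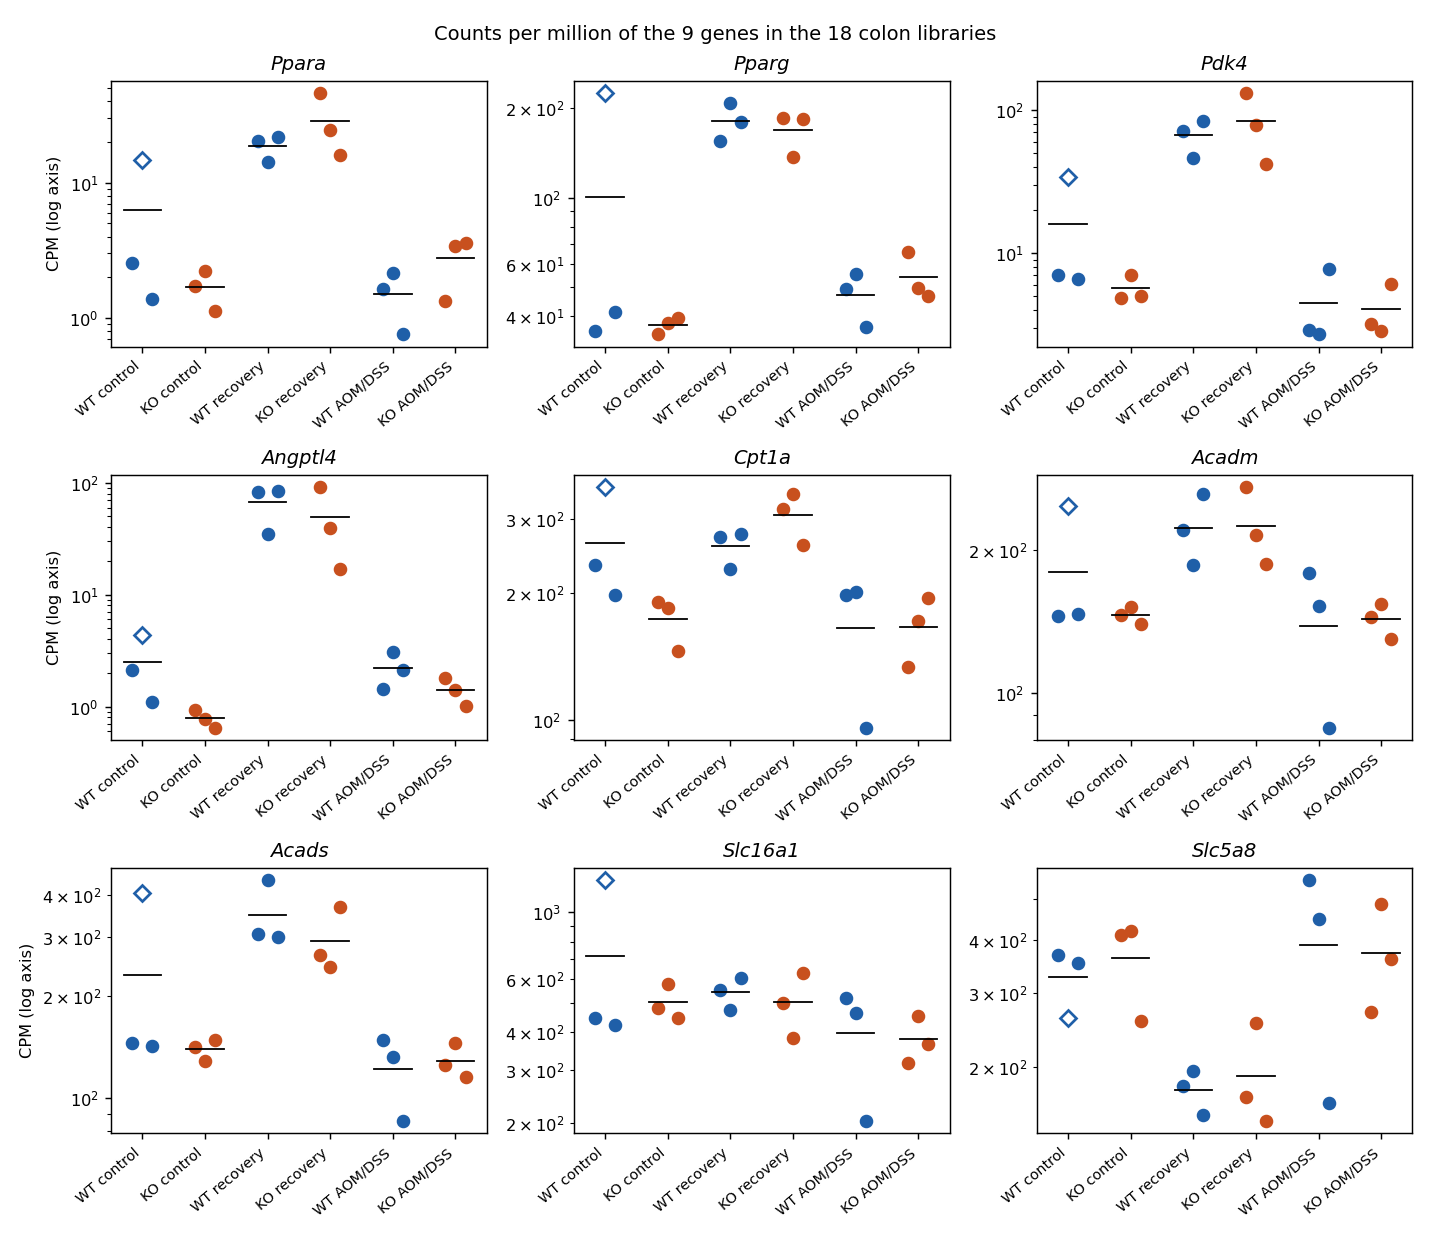
CPM of each gene (log axes) in the 18 libraries, by group, with KO for *Cldn2*KO. Points are libraries, lines are means of 3, and the open diamond is WT control replicate 2. *Angptl4* in that library (4.32 CPM) lies below every recovery library, whereas *Pparg* (225 CPM) lies above all of them.

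The comparison of recovery with control asked how fuel genes stand in the colon recovering from DSS injury. In *Cldn2*KO mice 6 of the 9 genes were higher in recovery (*Angptl4*, *Ppara*, *Pdk4*, *Pparg*, *Acads* and *Cpt1a*), by 1.77-fold to 62.6-fold, and none was lower, at a Benjamini-Hochberg adjusted p under 0.05 in edgeR's quasi-likelihood test. Over all genes tested, 9.43% were called higher and 10% lower. In WT mice 2 of the 9 were higher (*Angptl4* and *Pdk4*) and none lower, beside 10% of all genes higher and 12.2% lower. Without WT control replicate 2 the WT count was 5 of 9, with *Ppara*, *Pparg* and *Acads* added, beside 11.8% of all genes higher and 13.3% lower, but then every WT control was high and every WT recovery library low in *Hoxb13*, so the differences cannot be told apart. With all libraries and *Hoxb13* status as a covariate the WT count was 1 (*Angptl4*), beside 3.83% and 4.89%, and *Ppara* (0.34), *Pparg* (-0.31) and *Acads* (-0.21) did not pass on the log2 scale. The same covariate left 0 of the 9 in *Cldn2*KO mice, where 0.449% of all genes were called higher and 0.337% lower. Without WT control replicate 1 or 3, or WT recovery replicate 1 or 3, the WT count was 1 (*Angptl4*). The butyrate transporters passed this test in neither genotype.

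*Ppara*, the receptor best known for the fasting response of liver, was scarce in untreated colon. It measured 1.72, 2.22 and 1.13 CPM in *Cldn2*KO control and 46, 24.4 and 16.1 CPM in *Cldn2*KO recovery. The groups did not overlap, and the fitted log2 fold change was 4.09 ± 0.76 (SE, n = 3 per group, edgeR adjusted p = 0.00239). In WT control it measured 2.55, 14.9 and 1.37 CPM and in WT recovery 20.3, 14.3 and 21.6 CPM. The WT groups overlapped because replicate 2 of the control reached the level of the lowest recovery library, and the log2 difference of 1.60 ± 0.68 did not pass the test (edgeR adjusted p = 0.104). Without that library it was 3.22 ± 0.57 (edgeR adjusted p = 0.00083). The *Hoxb13* covariate left 1.19 ± 0.83 in *Cldn2*KO mice (edgeR adjusted p = 0.603).

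*Pparg*, the receptor of adipocytes that differentiated colonocytes also express, was the more abundant of the receptors in every group. It measured 34.8, 38 and 39.6 CPM in *Cldn2*KO control and 186, 137 and 184 CPM in *Cldn2*KO recovery. The recovery libraries all lay above the controls, with a fitted log2 change of 2.17 ± 0.51 (n = 3, edgeR adjusted p = 0.00845). WT control held 35.8, 225 and 41.4 CPM and WT recovery 155, 209 and 179 CPM. Replicate 2 of WT control exceeded all 6 recovery libraries, and the WT difference of 0.85 ± 0.49 did not pass (edgeR adjusted p = 0.229). Leaving that library out gave 2.21 ± 0.22 (edgeR adjusted p = 4.65e-06). With the *Hoxb13* covariate the direction turned in both genotypes, at -0.31 in WT (edgeR adjusted p = 0.445) and -0.37 in *Cldn2*KO mice (edgeR adjusted p = 0.694), and neither passed.

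*Angptl4*, the lipase inhibitor, showed the widest span of the 9 genes. It measured 2.12, 4.32 and 1.1 CPM in WT control, 0.936, 0.776 and 0.645 CPM in *Cldn2*KO control, 82.2, 34.5 and 85.1 CPM in WT recovery and 92.4, 39.7 and 17.1 CPM in *Cldn2*KO recovery. Every recovery library lay above every control library, WT control replicate 2 included. On the log2 scale the change was 4.76 ± 0.63 in WT mice (n = 3, edgeR adjusted p = 0.000478) and 5.97 ± 0.68 in *Cldn2*KO mice (n = 3, edgeR adjusted p = 0.000179). These levels rested on 12 reads of *Angptl4* in the lowest control library and on 348 to 2022 reads in recovery. It was the only one of the 9 genes called in WT mice when *Hoxb13* status was added to the model as a covariate (log2 fold change 3.96 ± 0.89, edgeR adjusted p = 0.0178). In *Cldn2*KO mice the same covariate left 4.57 ± 1.08 (edgeR adjusted p = 0.0658).

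*Pdk4*, the kinase that spares glucose when fatty acids are burned, followed *Angptl4*. It measured 7.07, 34.1 and 6.58 CPM in WT control and 71.4, 46.5 and 84.4 CPM in WT recovery. It measured 4.88, 7.1 and 5.06 CPM in *Cldn2*KO control and 131, 78.2 and 42.3 CPM in *Cldn2*KO recovery. Recovery and control did not overlap in either genotype, although WT control replicate 2 came near the lowest recovery library. On the log2 scale the change was 2.09 ± 0.62 in WT mice (edgeR adjusted p = 0.0257) and 3.89 ± 0.67 in *Cldn2*KO mice (edgeR adjusted p = 0.00149). WT control replicate 2, at 34.1 CPM against 7.07 and 6.58 CPM, raised the WT control mean, so the size of the WT change depends on it. *Pdk4* was called in WT mice with and without that library. With the *Hoxb13* covariate neither passed the test (WT 0.98 ± 0.63, edgeR adjusted p = 0.34, and *Cldn2*KO 1.57 ± 0.80, edgeR adjusted p = 0.436).

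**Figure D2:**
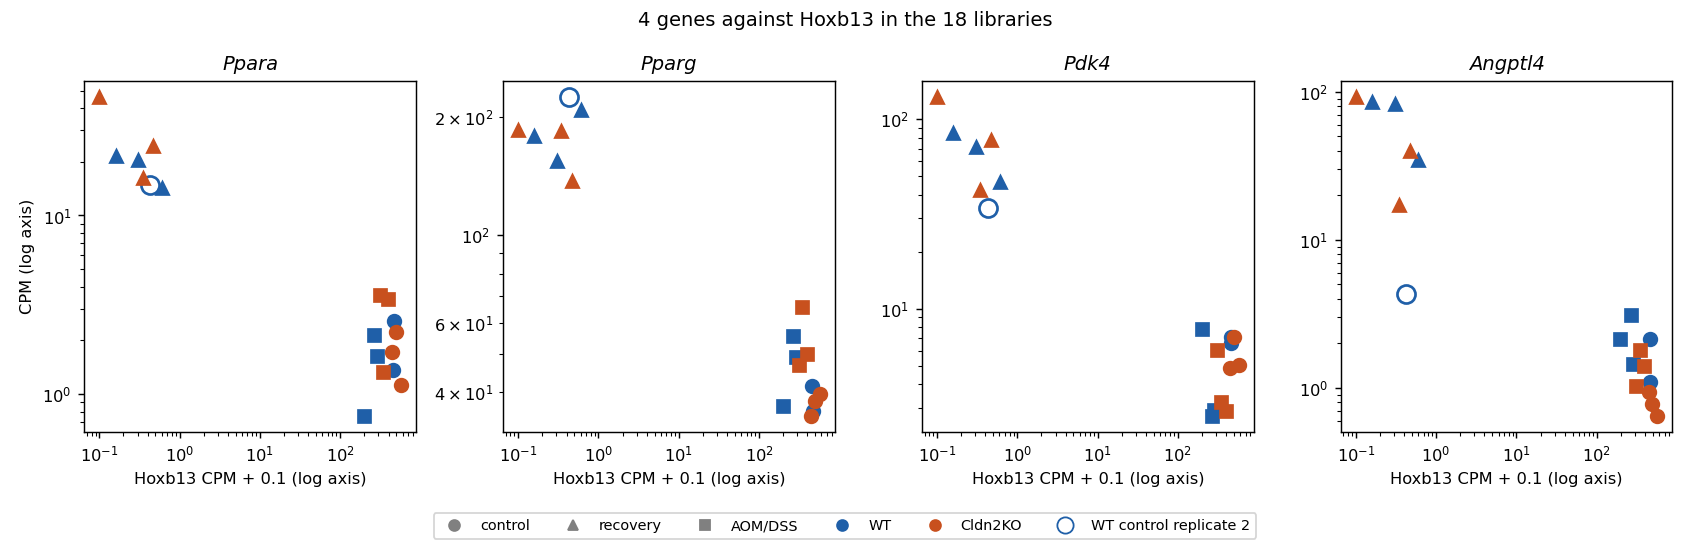
CPM of *Ppara*, *Pparg*, *Pdk4* and *Angptl4* against *Hoxb13* CPM + 0.1 (both axes log), 1 point per library, shapes for treatment and colours for genotype. WT control replicate 2, the large open circle, lies within the recovery range for *Ppara*, just above them for *Pparg*, just below them for *Pdk4*, and between them and the other controls for *Angptl4*.

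*Cpt1a*, the gatekeeper of long-chain fatty acid oxidation, differed less. In *Cldn2*KO mice it measured 191, 184 and 146 CPM in control and 317, 344 and 261 CPM in recovery, without overlap and with a log2 change of 0.82 ± 0.27 (edgeR adjusted p = 0.0404). In WT mice the control held 233, 359 and 198 CPM and recovery 272, 229 and 277 CPM, which overlapped, with a difference of -0.02 ± 0.26 (edgeR adjusted p = 0.964). The *Cldn2*KO call was lost without any 1 of the 3 control libraries, without recovery replicate 1 or 2, with upper-quartile scaling, with an *Xist* covariate and with the *Hoxb13* covariate (0.09 ± 0.42, edgeR adjusted p = 0.96).

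*Acads*, the dehydrogenase that oxidises butyryl-CoA, measured 141, 129 and 149 CPM in *Cldn2*KO control and 265, 244 and 368 CPM in *Cldn2*KO recovery. All recovery libraries were higher, with a fitted log2 change of 1.07 ± 0.34 (edgeR adjusted p = 0.0373). In WT control it measured 145, 405 and 143 CPM and in WT recovery 306, 442 and 299.9 CPM. Only control replicate 2 reached into the recovery range, and the WT difference was 0.60 ± 0.34 (edgeR adjusted p = 0.215), or 1.26 ± 0.24 without that library (edgeR adjusted p = 0.00166). The *Cldn2*KO call was lost under 9 of the 15 alternatives, namely without any 1 of its 6 libraries, with upper-quartile scaling, with the *Xist* covariate and with the *Hoxb13* covariate, where the direction turned (-0.43 ± 0.38, edgeR adjusted p = 0.705).

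*Acadm*, its medium-chain counterpart, had 146, 152 and 139 CPM in *Cldn2*KO control and 271, 215 and 187 CPM in *Cldn2*KO recovery. The groups did not overlap, yet the log2 difference of 0.62 ± 0.25 did not pass (edgeR adjusted p = 0.0985). WT control held 145, 246 and 147 CPM and WT recovery 219.5, 186 and 261 CPM, with overlap and a difference of 0.31 ± 0.25 (edgeR adjusted p = 0.406). The overlap came from control replicate 2 alone, as the other WT controls lay below all WT recovery libraries.

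The butyrate transporters did not share this pattern. *Slc16a1* measured 447, 1280.0 and 424 CPM in WT control, 483, 580.3 and 446 CPM in *Cldn2*KO control, 555, 475 and 605 CPM in WT recovery and 499.7, 383 and 628 CPM in *Cldn2*KO recovery. WT control replicate 2 was the highest of the 18 libraries, and the other WT controls lay below all 3 WT recovery libraries. The *Cldn2*KO groups overlapped. The log2 difference was -0.40 ± 0.39 in WT mice (edgeR adjusted p = 0.497), or 0.30 ± 0.31 without control replicate 2 (edgeR adjusted p = 0.51), and 0.00 ± 0.39 in *Cldn2*KO mice (edgeR adjusted p = 1). *Slc5a8*, the sodium-coupled transporter, measured 368, 261 and 352 CPM in WT control and 180.2, 196 and 154 CPM in WT recovery. In *Cldn2*KO mice it measured 411, 420.0 and 257 CPM in control and 169.5, 254 and 149 CPM in recovery. All recovery libraries lay below all controls of their genotype, but neither difference passed, at -0.89 ± 0.36 in WT mice (edgeR adjusted p = 0.0836) and -0.93 ± 0.36 in *Cldn2*KO mice (edgeR adjusted p = 0.0806). For *Slc5a8*, limma-voom and the fit to only the groups compared called both differences, and DESeq2 called that of *Cldn2*KO mice. WT control replicate 2 lay within the range of the other controls for this gene.

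**Figure D3:**
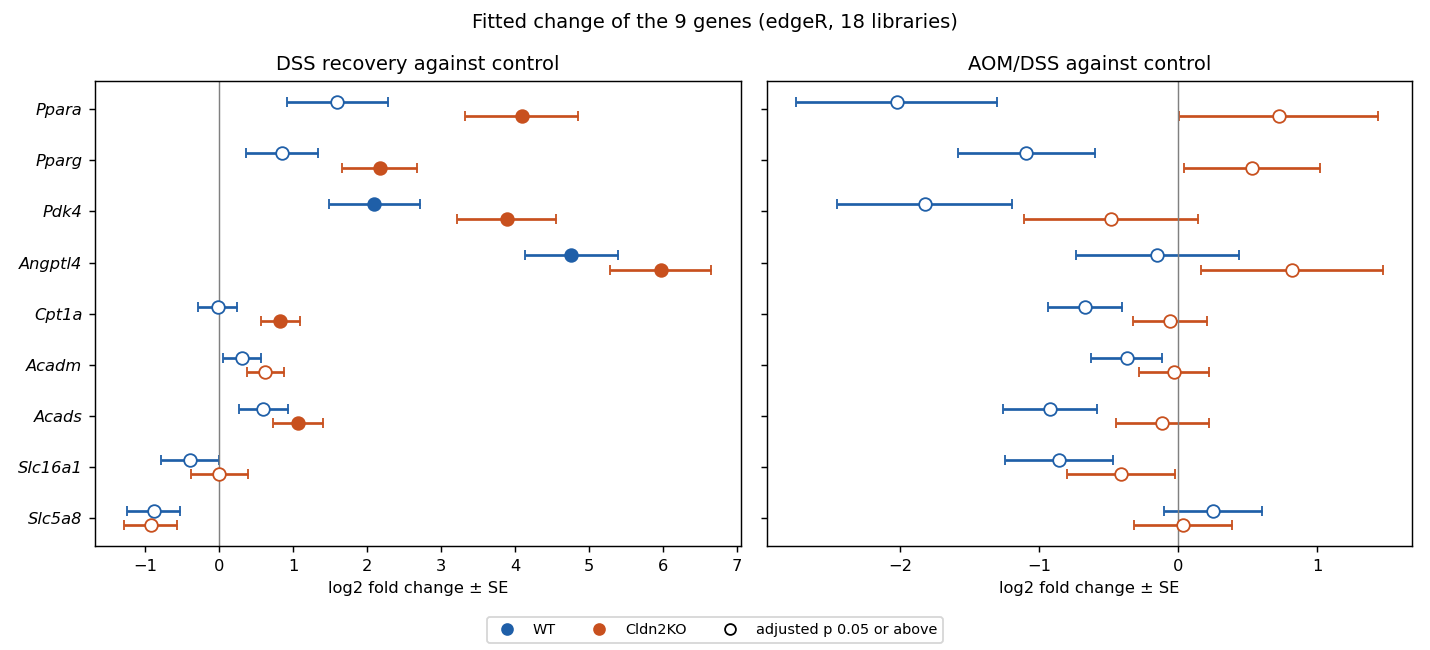
Fitted log2 fold change with its SE (edgeR, all 18 libraries) of the 9 genes, for recovery against control (left) and AOM/DSS against control (right). WT is blue and *Cldn2*KO orange, and filled points passed an adjusted p under 0.05. The 2 WT and 6 *Cldn2*KO filled points all lie on the left, at positive values, and none is filled on the right.

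The sum of adipocyte markers differed between these libraries. Of the 5 tested, 0 were called in WT recovery against control (median log2 fold change -1.60). In *Cldn2*KO recovery 2 were called higher and 0 lower (median 5.56). *Adipoq*, *Plin1*, *Cidec*, *Lep*, *Cfd* and *Retn* together reached 299.7 CPM in WT control replicate 2, 34.4 to 110.5 CPM in the 6 recovery libraries and at most 7.9 CPM elsewhere. *Cidec* made up much of the recovery sum (23.9 to 51.2 CPM). In *Cldn2*KO recovery replicate 1, *Cidec* measured 34.4 CPM, against 0.64 to 2.08 CPM in the controls other than WT control replicate 2, *Adipoq* measured 0.0535 CPM and the other 4 were at 0. Summed smooth muscle markers ranged from 667 to 2020 CPM in recovery and from 3526 to 9594 CPM in control. Summed over 10 markers, colon epithelium measured 26690 to 68290 CPM in recovery, 66110 CPM in WT control replicate 2, 19300 to 23020 CPM in the other controls and 9242 to 14840 CPM in AOM/DSS. Of those 10 genes, 1 was called higher and 5 lower in WT recovery, and 1 higher and 1 lower in *Cldn2*KO recovery. Beside the marker calls, 10% of all genes were higher and 12.2% lower in WT recovery, and 9.43% and 10% in *Cldn2*KO recovery. T cell markers summed to 41.2 CPM in WT control replicate 2, to 7.52 to 29.9 CPM in recovery and to at most 6.52 CPM in the other controls. Plasma and B cell markers were called lower for 3 of 4 in WT and 2 of 4 in *Cldn2*KO recovery, endothelial markers for 3 of 4 and 0 of 4, and macrophage markers for 2 of 4 in each. The part of these cell types in the differences was not tested. In these bulk samples, fewer cells of a type and less RNA per cell cannot be told apart.

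Comparisons of genotype asked whether loss of claudin-2 altered the fuel genes. No gene of the 9 passed the edgeR test between *Cldn2*KO and WT mice in control, recovery or AOM/DSS colon, nor with DESeq2 or limma-voom. In control colon, 0.124% of all genes were called higher and 1.05% lower in *Cldn2*KO mice. There 6 of the 9 had an unadjusted p under 0.05, as did 13.1% of all genes. The 6 were each lower in *Cldn2*KO mice, with *Ppara* at -1.87 ± 0.72 on the log2 scale (edgeR adjusted p = 0.268) and *Angptl4* at -1.65 ± 0.65 (edgeR adjusted p = 0.28). Without WT control replicate 2, *Ppara* moved to -0.25 ± 0.53 and *Pparg* from -1.42 ± 0.50 to -0.07 ± 0.20. *Angptl4* moved to -1.07 ± 0.69, also short of the threshold (edgeR adjusted p = 0.729). With all libraries, T cell markers were called lower in *Cldn2*KO control for 2 of 4, and plasma and B cell markers for 1 of 4. No other cell type marker was called, and their part was not tested.

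In recovery the genotypes overlapped for each of the 9 genes, and none had an unadjusted p under 0.05, against 19.9% of all genes. The differences (*Cldn2*KO minus WT) ran from -0.44 ± 0.52 for *Angptl4* to 0.62 ± 0.66 for *Ppara*. Of all genes, 0.549% were called higher and 0.425% lower. The spread within *Cldn2*KO recovery was wide, with *Angptl4* at 92.4, 39.7 and 17.1 CPM in its 3 libraries. The AOM/DSS genotypes also overlapped for all 9, with none at an unadjusted p under 0.05 against 5.6% of all genes, beside 0% of all genes higher and 0.0059% lower.

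The test of whether the recovery response differed between genotypes called none of the 9 in edgeR, DESeq2 or limma-voom. Of all genes it called 0.106% more positive and 0.0236% more negative in *Cldn2*KO mice. *Ppara* (2.49 ± 0.98, unadjusted p = 0.022) and *Cpt1a* (0.85 ± 0.38, unadjusted p = 0.0386) had unadjusted p-values under 0.05 in that model across all genes, with edgeR adjusted p = 0.196 and 0.243. An unadjusted p under 0.05 was found for 18.5% of all genes there. WT control replicate 2 measured 14.9 CPM for *Ppara* (other controls at most 2.55) and 359 CPM for *Cpt1a* (other controls at most 233). Both differences therefore rest in part on that library. So the larger count of calls in *Cldn2*KO mice was not shown to be a difference between the genotypes.

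AOM/DSS colon asked how the genes stand in the cancer model. In both genotypes the receptors and their target genes lay below every recovery library, a comparison that was not tested. *Angptl4* ranged from 1.02 to 3.11 CPM, *Pdk4* from 2.71 to 7.79 CPM, *Ppara* from 0.756 to 3.59 CPM and *Pparg* from 36.9 to 65.7 CPM over the 6 AOM/DSS libraries. *Slc5a8* measured 555, 448 and 165 CPM in WT AOM/DSS and 270.4, 486 and 359.9 CPM in *Cldn2*KO AOM/DSS. WT AOM/DSS replicate 3 held the lowest of the 18 values for *Acadm*, *Acads*, *Cpt1a*, *Slc16a1* and *Ppara* (84.6, 85.4, 95.9, 203 and 0.756 CPM).

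None of the 9 genes passed the edgeR test of WT AOM/DSS against WT control, where 3.81% of all genes were called higher and 6.58% lower. An unadjusted p under 0.05 was found for 6 genes, each lower in AOM/DSS, and for 29.9% of all genes. DESeq2 called 3 of the 9 lower, where it called 3033 of all genes in either direction, against 1761 by edgeR. With WT control replicate 3 left out, edgeR called 3 lower (*Ppara*, *Pdk4* and *Acads*), for which the share over all genes is not given. The lowest adjusted p was that of *Pdk4* (-1.82 ± 0.63, edgeR adjusted p = 0.0718). Without WT control replicate 2 that difference was -0.63 ± 0.50 (edgeR adjusted p = 0.51) and *Ppara* went from -2.02 ± 0.72 to -0.40 ± 0.53. In *Cldn2*KO mice AOM/DSS against control called none of the 9 in edgeR, DESeq2 or limma-voom, none had an unadjusted p under 0.05 against 15.2% of all genes, and 0.0768% of all genes were called higher and 0.118% lower. *Pparg* did not overlap between these groups (46.7 to 65.7 CPM against 34.8 to 39.6 CPM), with a difference of 0.53 ± 0.49 (edgeR adjusted p = 0.636). Nor did *Angptl4* (1.02 to 1.81 CPM against 0.645 to 0.936 CPM), with 0.82 ± 0.66 (edgeR adjusted p = 0.582). The AOM/DSS response was called different between genotypes for none of the 9 by the same 3 tools and for 0.0118% of all genes upward and 0% downward. *Ppara* and *Pparg* had unadjusted p-values under 0.05 in it, as did 8.44% of all genes. Both differences rest in part on WT control replicate 2, at 14.9 and 225 CPM. The other controls held at most 2.55 and 41.4 CPM.

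The surrounding pathways were read from 79 genes in 8 lists, of which 74 passed the filter. In *Cldn2*KO recovery 26 of the 74 were higher and 2 lower than in control, with a median log2 fold change of 0.49 beside 9.43% and 10% of all genes. In WT recovery 20 were higher and 9 lower (median 0.28), and without WT control replicate 2 the counts were 34 and 8 (median 0.44), when 11.8% of all genes were called higher and 13.3% lower. With the *Hoxb13* covariate, 6 were higher and 7 lower in WT, beside 3.83% and 4.89% of all genes, and 1 higher and 0 lower in *Cldn2*KO mice, beside 0.449% and 0.337%.

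Among the 4 ketone body genes, none was higher and 1 lower in *Cldn2*KO recovery, and 1 was higher and 2 lower in WT recovery. The shares of all genes were 9.43% higher and 10% lower in *Cldn2*KO recovery, and 10% and 12.2% in WT recovery. *Oxct1*, which turns ketone bodies back into fuel, measured 449.7, 558 and 465 CPM in *Cldn2*KO control and 166, 152 and 208 CPM in *Cldn2*KO recovery. The groups did not overlap, and the fitted log2 change was -1.49 ± 0.34 (edgeR adjusted p = 0.00692). WT control held 488, 154 and 511 CPM and WT recovery 181, 242 and 163 CPM, where replicate 2 of the control lay below all 3 recovery libraries. *Oxct1* was also called lower there, at -0.97 ± 0.33 (edgeR adjusted p = 0.0472). *Aacs*, a cytosolic enzyme that activates acetoacetate, was lower in WT recovery (-0.83 ± 0.26, edgeR adjusted p = 0.0312), and *Acat1*, the mitochondrial acetoacetyl-CoA thiolase, was higher (0.67 ± 0.23, edgeR adjusted p = 0.0431). Without WT control replicate 2, none of the 4 was called higher in WT recovery and 2 were called lower, beside 11.8% and 13.3% of all genes. Under the *Hoxb13* covariate edgeR called none of the 4 in either genotype, and *Oxct1* in WT was at 0.35 ± 0.29. *Bdh1*, which interconverts the ketone bodies, differed by 0.00 ± 0.26 in WT and 0.32 ± 0.26 in *Cldn2*KO mice and passed in neither.

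Of the 11 genes of fatty acid activation and the carnitine shuttle, 2 were higher in *Cldn2*KO recovery and none lower, against 1 higher and 1 lower in WT recovery, where 10% of all genes were higher and 12.2% lower. The WT counts were 2 and 1 without control replicate 2, and adding the *Hoxb13* covariate gave 1 and 0 in WT and 0 and 0 in *Cldn2*KO mice. The carnitine transporter gene *Slc22a5* was the higher one in WT mice (1.11 ± 0.36) and also higher in *Cldn2*KO mice (1.81 ± 0.37). Mitochondrial beta-oxidation genes were called higher for 7 of 13 in WT and 7 of 13 in *Cldn2*KO recovery, with none lower. The WT count was 12 of 13 without control replicate 2, and with the *Hoxb13* covariate the counts were 1 and 0. These included *Acaa2*, the thiolase of the last step, at 1.23 and 1.33, and *Acadvl*, the very-long-chain dehydrogenase, at 0.89 and 1.14 on the log2 scale in WT and *Cldn2*KO mice. Peroxisomal beta-oxidation genes were higher for 1 of 6 in WT and 5 of 6 in *Cldn2*KO recovery, and for 5 of 6 in WT without control replicate 2, but for none in either genotype with the *Hoxb13* covariate. *Pex11a*, a factor of peroxisome division, was higher in WT (1.06 ± 0.27, edgeR adjusted p = 0.0123) and in *Cldn2*KO mice (1.62 ± 0.27, edgeR adjusted p = 0.0012). *Acaa1b* had the largest fold in *Cldn2*KO mice (6.97 ± 1.72, edgeR adjusted p = 0.0115), from 0.0985, 0.665 and 0.108 CPM to 39.2, 22.4 and 47.7 CPM. Its near-identical copy *Acaa1a* makes the split of reads between them uncertain.

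Other target genes of the PPARs were higher for 8 of 13 and lower for 1 in *Cldn2*KO recovery, and higher for 4 and lower for 1 in WT recovery. Beside them, 9.43% of all genes were higher and 10% lower in *Cldn2*KO recovery, and 10% and 12.2% in WT recovery. Without WT control replicate 2 the WT counts were 8 and 0. With the *Hoxb13* covariate they were 2 and 3, and 0 and 0 in *Cldn2*KO mice. *Vnn1*, a pantetheinase, rose in WT (3.29 ± 0.77, edgeR adjusted p = 0.00906) and in *Cldn2*KO mice (5.33 ± 0.89, edgeR adjusted p = 0.00131). It measured 26.5 to 114 CPM in recovery, 22.8 CPM in WT control replicate 2 and 0.837 to 1.73 CPM in the other controls. *Fabp1* and *Plin5* were called in *Cldn2*KO recovery on 1 read in the 3 controls together, so no fold is given, and their recovery levels were at most 2.29 and 2.81 CPM. *Fabp1* was also called higher in WT recovery, at 0.285 to 2.29 CPM. Among the lipid droplet genes, *Plin2* was lower in *Cldn2*KO recovery (-1.08 ± 0.24, edgeR adjusted p = 0.00528) and *Plin4* in WT recovery (-1.72 ± 0.54, edgeR adjusted p = 0.0331). Of the 8 PPAR partners and coregulators, 2 were higher in *Cldn2*KO recovery and none lower, against 0 higher and 1 lower in WT recovery, where 12.2% of all genes were lower. Under the *Hoxb13* covariate the counts were 0 and 0 in *Cldn2*KO mice and 0 and 2 in WT mice. The gene lower in the WT comparison without it was *Ppard*, the third PPAR, which was lower in WT recovery (-1.07 ± 0.19, edgeR adjusted p = 0.00177).

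Other genes of butyrate transport and sensing were higher for 2 of 7 in WT and 1 of 7 in *Cldn2*KO recovery, with none lower. For this list and the next, 10% of all genes were higher and 12.2% lower in WT recovery. The shares were 9.43% and 10% in *Cldn2*KO recovery. *Ffar2*, a receptor for short-chain fatty acids, was higher in recovery of both genotypes, at 2.56 ± 0.36 in WT (edgeR adjusted p = 0.000708) and 2.63 ± 0.37 in *Cldn2*KO mice (edgeR adjusted p = 0.000482). It measured 12.4 to 20.5 CPM in recovery and 1.37 to 4.33 CPM in control, and WT control replicate 2 held the lowest of these values. *Ffar2* was also called in both genotypes with the *Hoxb13* covariate. *Slc16a7*, the transporter MCT2, was higher in WT recovery (2.08 ± 0.50, edgeR adjusted p = 0.00892). Glycolysis and pyruvate entry divided in WT recovery, with 4 of 12 higher and 4 lower. The higher ones carry pyruvate into the mitochondrion (*Mpc1*, *Mpc2*) or belong to pyruvate dehydrogenase (*Pdha1*, *Pdhb*). The lower ones were the glycolytic genes *Pfkfb3* (-2.82 ± 0.55), *Hk2* (-1.24 ± 0.40) and *Pkm* (-0.65 ± 0.19) and the kinase *Pdk1* (-0.67 ± 0.18). In *Cldn2*KO recovery 1 of these 12 was called, *Pdha1*, higher, near the 9.43% of all genes. Adding the *Hoxb13* covariate left 1 higher (*Pdha1*) and 2 lower (*Pfkfb3* and *Pdk2*) in WT and none called in *Cldn2*KO mice.

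**Figure D4:**
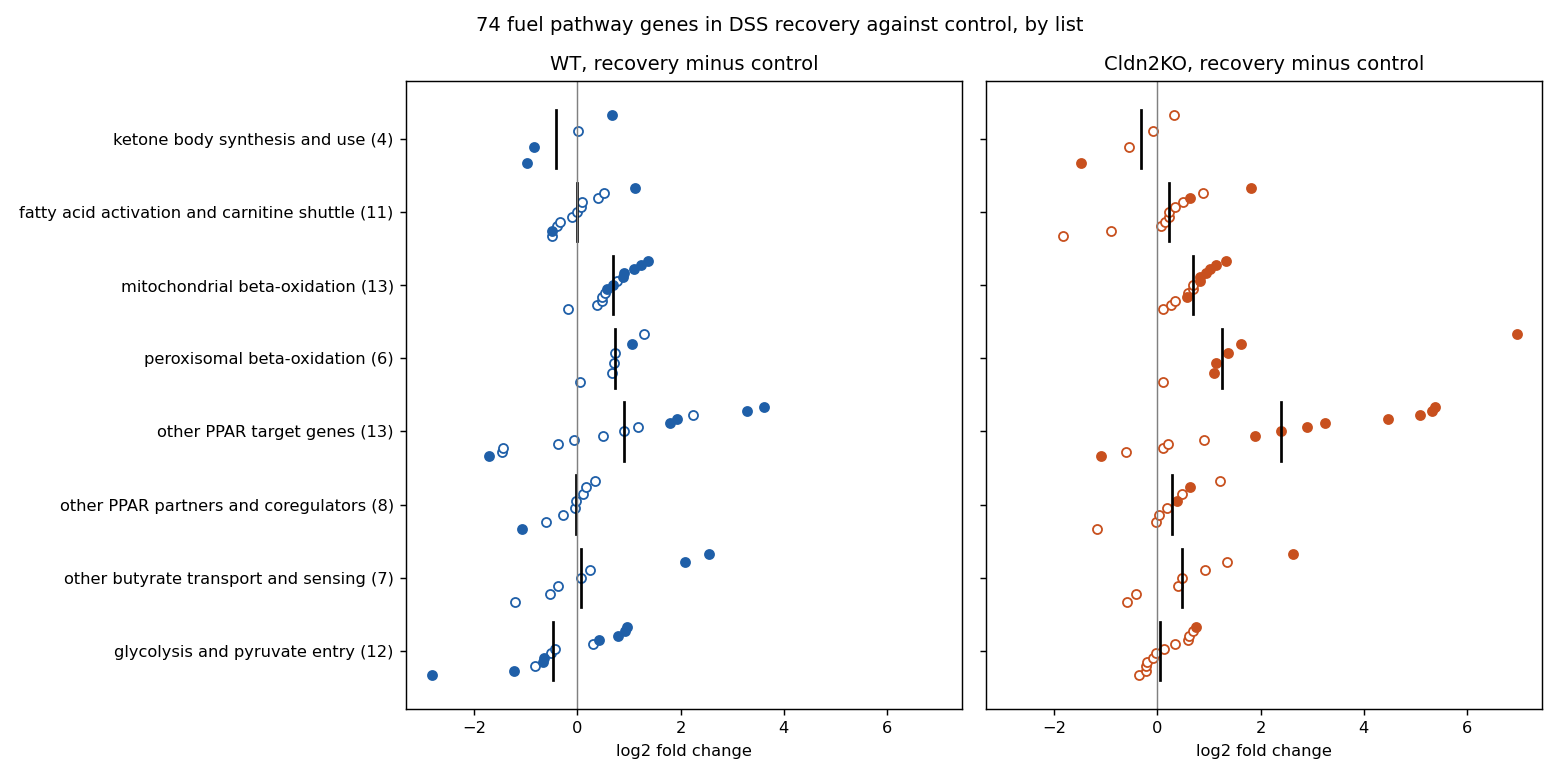
Fitted log2 fold change of the 74 pathway genes (points, errors not drawn) in recovery against control for WT (left) and *Cldn2*KO mice (right), by list with its number of genes. Filled points passed an adjusted p under 0.05 and black lines are list medians. Peroxisomal and other PPAR target genes have medians of 0.72 and 0.90 in WT, or 1.30 and 1.997 without WT control replicate 2 (not drawn), and 1.24 and 2.39 in *Cldn2*KO mice.

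In WT AOM/DSS, 1 of the 74 was higher than in control (*Ffar2*, 1.21 ± 0.35) and 15 lower, among them *Acaa1b* (-6.54 ± 1.73), *Fabp2* (-4.66 ± 1.35), *Plin4* (-2.18 ± 0.55) and *Slc25a20*, the carnitine carrier of the mitochondrial membrane (-1.28 ± 0.16). Of all genes, 3.81% were higher and 6.58% lower in that comparison. *Acaa1b* and *Fabp2* overlapped between the groups: WT control held 0.118, 58 and 0.11 CPM of *Acaa1b* and 20.4, 1714 and 22.9 CPM of *Fabp2*, a fatty acid binding protein of enterocytes, with replicate 2 far above the others. Without that library, 0 of the 74 were higher and 1 lower by edgeR, beside 0.375% and 1.61% of all genes. In the same comparison with all libraries, markers were called lower for 4 of 10 genes of colon epithelium, 3 of 6 of enteric neurons and glia, 2 of 6 of smooth muscle, 1 of 5 of skeletal muscle and 1 of 5 of adipocytes, and squamous epithelium had a median log2 difference of 4.14 with none of 4 called. Their part was not tested. In *Cldn2*KO AOM/DSS edgeR called none of the 74, with 11 (14.9%) at an unadjusted p under 0.05, near the 15.2% of all genes. In untreated *Cldn2*KO colon 1 of the 74 was called, near the 1.05% of all genes called lower there. It was *Acadl*, the long-chain dehydrogenase, at -0.58 ± 0.13 against WT (edgeR adjusted p = 0.0346). In that comparison 19 of the 74 (25.7%) had an unadjusted p under 0.05, above the 13.1% of all genes. The median log2 difference of the 74 was -0.27, or -0.06 without WT control replicate 2. Among the 74, edgeR called none between the genotypes in recovery or AOM/DSS, with 11 (14.9%) and 3 (4.05%) at an unadjusted p under 0.05, below the 19.9% and 5.6% of all genes.

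Set beside the controls, WT control replicate 2 held the recovery level for part of these genes only. Of the 9, recovery and the other 5 controls did not overlap for 7. They overlapped for 45 of the 79 pathway genes. The matching share over all genes was not computed, so these counts are no result particular to the fuel genes. Among those 7, WT control replicate 2 lay within the recovery range for *Ppara*, *Acadm* and *Acads* and beyond it for *Pparg*. It lay between the ranges for *Pdk4* and *Angptl4*, and within the other controls for *Slc5a8*.

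Across the 18 libraries the genes varied together, as a description of libraries that share treatment and *Hoxb13* status. Pearson correlations of log2 CPM between *Ppara*, *Pparg*, *Pdk4* and *Angptl4* ran from 0.867 to 0.922, and after group means were removed from 0.405 to 0.686. *Slc16a1* and *Slc5a8*, which carry the same substrate, had a correlation of 0.006. *Slc5a8* correlated negatively with the other 7, from -0.783 with *Pdk4* to -0.221 with *Cpt1a*. After group means were removed this did not hold, since its correlations ran from -0.458 with *Pdk4* to 0.623 with *Cpt1a* and were positive for 4 of the 7.

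The gene most like each one over the 18 libraries was *Pcsk7* for *Ppara* (0.970), *Gcnt3* for *Pparg* (0.984), *Zmat4* for *Pdk4* (0.969), *Cyp3a25* for *Angptl4* (0.973), *Lclat1* for *Cpt1a* (0.930), *Etfdh* for *Acadm* (0.937), *Gstk1* for *Acads* (0.980), *Acad11* for *Slc16a1* (0.910) and *Strip2* for *Slc5a8* (0.924). After group means were removed, *Gcnt3* with *Pparg* stayed at 0.961 and *Etfdh* with *Acadm* at 0.955, whereas *Cyp3a25* with *Angptl4* fell to 0.737. *Etfdh* passes electrons from the acyl-CoA dehydrogenases to the respiratory chain. The second in likeness were *Malrd1*, *Pon2*, *Ermp1*, *Slc13a1*, *Suclg2*, *Ehhadh*, *Fabp2*, *Fam149b* and *Camk1d*, in the same order of genes.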

How the data were processed

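RNA was extracted from colon samples and sequenced by the authors on an Illumina NovaSeq instrument. The submitters' processing notes name HISAT2, featureCounts and Subread with the GRCm38 build, whereas the paper's methods name TopHat2 as the aligner, and the authors used DESeq2 for their own tests. The values the authors deposited are raw counts per gene in 36 columns, for 18 libraries on 2 lanes, with no normalization, and a column of gene lengths. Strandedness and the treatment of reads with several alignments were not given in the sources used here. The labels repeat the dosing text (AOM 10 mg/kg, 3 cycles of 2.5% DSS) on every sample, controls included.

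Lanes were summed, since the chi-square between lanes, divided by its degrees of freedom, was 1.06 to 1.13, against at least 8.2 in the 18 pairs of replicates. Symbols were assigned to 47224 of 47729 genes. Total counts were 17.6 M to 27.4 M per library (median 19.6 M). edgeR 4.0.16 (R 4.3.3) kept 16937 genes by filterByExpr, applied TMM factors, and fitted a mean per group to all 18 libraries by quasi-likelihood with robust estimation (biological coefficient of variation 0.315). A gene was called where its p-value, adjusted by Benjamini-Hochberg over all 16937 genes, was under 0.05. The 7 pairwise contrasts were genotype within treatment and treatment within genotype, and 2 more tested the difference between genotypes in a response. RPKM used the length column. The script was tested on simulated data. DESeq2 1.42.0, limma 3.58.1 (voom with sample weights), other scalings and filters, covariates for *Hoxb13* and *Xist* (each over 10 CPM), a replicate block and leaving out each library were the alternatives. Python with pandas and matplotlib drew the figures.

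The members, gene lists and tests were chosen with earlier results of these data known. Named pathway genes are, per contrast, up to 4 higher and 4 lower called genes with the largest absolute log2 fold change. Others were named after their values were seen, as were the alternatives for the pathway counts. For each member the 2 genes with the highest correlation of log2 CPM were named. Some genes of the pathway lists are not reported here, and the counts of the lists leave them out.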

Additional observations from a re-analysis of the deposited data

How the results depend on the processing

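Over the 9 genes and 9 contrasts, 1332 values under alternatives were compared with the reported ones: 1183 kept their direction and side of the threshold, 26 fell below it, 20 passed it and 103 changed sign. Of these 103, 101 were called neither in the reported fit nor under the alternative. The other 2 were called as reported and not under the alternative, both in *Cldn2*KO recovery against control with the *Hoxb13* covariate, *Pparg* at -0.37 and *Acads* at -0.43 on the log2 scale. In both genotypes the covariate rests only on WT control replicate 2 against the other WT controls, so its WT results also depend on that library. In *Cldn2*KO recovery the covariate called 0 of the 9 genes, against 6. In WT recovery against control, where 2 were called, it called 1, the fit with no filter called 1, limma-voom called 7 (6 higher and *Slc5a8* lower), and leaving out 1 library gave 1 to 5, with 5 without WT control replicate 2. In *Cldn2*KO recovery leaving out 1 library gave 4 to 5, the upper-quartile and *Xist* fits gave 4, DESeq2 gave 7 (*Slc5a8* lower added), and limma-voom and the fit to only the groups compared gave 8 each (*Acadm* higher also added). *Cpt1a* was called there in 7 of 15 alternatives and *Acads* in 6, against 14 of 15 for *Ppara*, *Pparg*, *Pdk4* and *Angptl4*. *Angptl4* in WT recovery was called in 15 of 15 (log2 fold change 3.96 to 5.68) and *Pdk4* in 8 of 15. In WT AOM/DSS against control, with 0 called by edgeR, DESeq2 called 3 lower and leaving out 1 library gave 0 to 3, with 3 without WT control replicate 3 (*Ppara*, *Pdk4* and *Acads*). The 6 other contrasts called 0 of the 9 under every alternative run, limma-voom and DESeq2 included. The causes were not tested. Counts over all genes moved more: limma-voom called 8086 in WT recovery against 3767, and the *Hoxb13* covariate called 133 in *Cldn2*KO recovery against 3291.

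With the *Hoxb13* covariate the log2 difference turned for *Slc16a1* (0.21) between genotypes in control, *Pparg* (-0.31), *Acadm* (-0.15) and *Acads* (-0.21) in WT recovery, *Pparg* (-0.37), *Acadm* (-0.14), *Acads* (-0.43) and *Slc16a1* (-1.55) in *Cldn2*KO recovery. It also turned for *Pparg* (0.29) and *Angptl4* (0.45) in WT AOM/DSS, *Pparg* (-0.057), *Acads* (-0.21), *Slc16a1* (-0.32) and *Slc5a8* (0.10) for the genotype difference in the recovery response and *Slc16a1* (-0.28) for that in the AOM/DSS response. With limma-voom the log2 difference turned for *Slc16a1* (0.15) between genotypes in control, *Acadm* (-0.13) between genotypes in recovery, *Pparg* (-0.003), *Pdk4* (0.54), *Cpt1a* (-0.13), *Acadm* (-0.11) and *Acads* (-0.074) between genotypes in AOM/DSS. Against control it turned for *Cpt1a* (0.33) and *Slc16a1* (0.35) in WT recovery, *Slc16a1* (-0.16) in *Cldn2*KO recovery, *Pparg* (0.32), *Angptl4* (0.73) and *Acadm* (0.004) in WT AOM/DSS, *Slc5a8* (-0.14) in *Cldn2*KO AOM/DSS. It turned further for *Angptl4* (-0.14), *Acadm* (-0.10), *Acads* (-0.089), *Slc16a1* (-0.51) and *Slc5a8* (0.19) for the genotype difference in the recovery response and *Angptl4* (-0.20), *Acadm* (-0.085) and *Slc16a1* (-0.42) for that in the AOM/DSS response. With the *Xist* covariate the log2 difference turned for *Pdk4* (0.12), *Cpt1a* (-0.048) and *Acads* (-0.041) between genotypes in AOM/DSS, *Slc16a1* (-0.074) in *Cldn2*KO recovery and *Acadm* (0.074) and *Slc5a8* (-0.17) in *Cldn2*KO AOM/DSS. *Acadm* between genotypes in recovery turned with RLE scaling (-0.001), upper-quartile scaling (-0.021), DESeq2 (-0.001) and only the groups compared (-0.004). *Slc16a1* in *Cldn2*KO recovery turned with RLE scaling (-0.004), upper-quartile scaling (-0.10), a filter at 1 CPM (-0.022), DESeq2 (-0.004) and only the groups compared (-0.003). *Acadm* in *Cldn2*KO AOM/DSS turned with no filter (0.011). Leaving out 1 library at a time changed the sign of 28 differences, none of them called. Between genotypes in control they ran from -0.78 to 0.19 for *Slc16a1* and -0.012 to 0.33 for *Slc5a8*. Between genotypes in recovery they ran from -0.20 to 0.031 for *Pparg*, -0.16 to 0.64 for *Pdk4*, -0.15 to 0.13 for *Acadm*, -0.30 to 0.05 for *Slc16a1* and -0.15 to 0.26 for *Slc5a8*. Between genotypes in AOM/DSS they ran from -0.56 to 0.53 for *Pdk4*, -0.26 to 0.17 for *Cpt1a*, -0.21 to 0.27 for *Acadm*, -0.12 to 0.24 for *Acads*, -0.38 to 0.18 for *Slc16a1* and -0.43 to 0.28 for *Slc5a8*. In WT recovery they ran from -0.19 to 0.25 for *Cpt1a* and -0.66 to 0.30 for *Slc16a1*. In *Cldn2*KO recovery they ran from -0.19 to 0.17 for *Slc16a1*. In WT AOM/DSS they ran from -1.49 to 0.27 for *Pparg*, -0.50 to 0.43 for *Angptl4* and -0.10 to 0.62 for *Slc5a8*. In *Cldn2*KO AOM/DSS they ran from -0.17 to 0.085 for *Cpt1a*, -0.054 to 0.053 for *Acadm* and -0.17 to 0.23 for *Slc5a8*. For the genotype difference in the recovery response they ran from -0.051 to 1.73 for *Pparg*, -0.21 to 0.72 for *Acads*, -0.32 to 0.66 for *Slc16a1* and -0.30 to 0.11 for *Slc5a8*. For that in the AOM/DSS response they ran from -0.25 to 0.71 for *Slc16a1* and -0.59 to 0.13 for *Slc5a8*.

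Control libraries share replicate numbers between genotypes. Deviations of same-numbered libraries correlated at 0.157, 0.002 and 0.079, so the numbers were not taken as pairs. With the replicate block, 0 of the 9 genes were called between genotypes in control, as without it, and 179 of all genes against 199.

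Depth limits the scarce genes: *Angptl4* rested on as few as 12 reads, *Ppara* on 16 and *Pdk4* on 60.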
